A study of Mus musculus with 9 samples.

Results

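The clustered protocadherin domain of mouse chromosome 18 holds the Pcdha, Pcdhb and Pcdhg gene families, and its CpG methylation was read in primordial germ cells, pooled by genotype as wild type (WT) or Tet1-null. Its members were chosen by position alone: all CpG sites listed in either pooled table from 37080001 to 38010000 on chromosome 18 (mouse build mm9), 9357 of 18722682 sites in the series. Of these, 6518 carried reads in the WT pool, 8066 in the Tet1-null pool and 5227 in both. The Pcdha cluster (37080001 to 37360000) held 2840 sites, the Pcdhb cluster (37420001 to 37680000) 2360 and the Pcdhg cluster (37820001 to 38010000) 2886. The stretches between the clusters held 359 and 912 sites. The control was the 1 Mb of chromosome 18 on either side, with 20622 sites.

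Primordial germ cells give rise to the gametes. All libraries came from female C57BL/6 embryos at embryonic day 13.5, with 4 WT libraries of 1575 to 5251 cells and 5 Tet1-null (Tet1 -/-) libraries of 1400 to 4700 cells, read by whole-genome bisulfite sequencing. Tet1 encodes a dioxygenase that oxidises 5-methylcytosine, a step of active DNA demethylation. The labels used here do not describe the Tet1 allele, how the germ cells were isolated or how many embryos went into a library. Tet1-null libraries 1 and 2 list the same input cell number with different kits and runs, and whether they share cells is not given. Each genotype's libraries were merged into 1 table, so no difference below has a replicate check, and each compares 2 pools and not the genotypes. Germ cell markers and the Tet1 deletion were not checked here, since the tables hold no expression and no annotation of the build was used.

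Clustered protocadherins are cell-surface adhesion proteins of neurons. Each gene of the Pcdha and Pcdhg families has a variable first exon with its own promoter, which is spliced to constant exons shared by the family, and the Pcdhb genes lie in tandem without shared constant exons. In neurons, a small set of promoters is active per cell, and silent promoters carry DNA methylation that is laid down early in development, whereas primordial germ cells erase most methylation of the genome. In the RefSeq gene table of build GRCm38, used for names and order only, the families run from Pcdha1 to Pcdhac2 (14 genes), from Pcdhb1 to Pcdhb22 (22 genes) and from Pcdhga1 to Pcdhgc5 (22 genes, of which Pcdhgb8 is listed as a pseudogene). Slc25a2, a mitochondrial carrier, Taf7, a subunit of the general transcription factor TFIID, and Gm8242 stand between Pcdhb22 and Pcdhga1. Which listed site belongs to which gene was not analysed here, so results are given by cluster and by position.

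Depth was low. The WT pool held 13673 reads over the domain (2.10 per listed site) and the Tet1-null pool 21618 (2.68), against 2.21 and 2.85 per site on all autosomes. A level is the share of methylated reads among all reads, summed over CpG sites, with a Wilson 95% interval. Where values come in pairs, WT stands first. Differences are Tet1-null minus WT in percentage points with Newcombe 95% intervals. Reads were not resolved, and a read that spans several CpGs counts at each, so these intervals cover counting error only and are too narrow. The mitochondrial chromosome (chrM), which carries little CpG methylation, read 1.66% (WT) and 1.29% (Tet1-null), and the part of incomplete conversion in the low levels below was not tested.

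Summed over all its sites, the domain was methylated above its surroundings in both pools, which did not hold for each cluster. The sign of the difference between the pools depended on the sites used. In the WT pool 644 of 13673 reads were methylated, 4.71% (4.37 to 5.08%), against 3.00% (2.82 to 3.19%) in the flanks. In the Tet1-null pool 1066 of 21618 reads were methylated, 4.93% (4.65 to 5.23%), against 3.63% (3.47 to 3.79%) in the flanks. The domain thus exceeded the flanks by 1.71 points (1.32 to 2.12) in WT and by 1.30 points (0.977 to 1.64) in Tet1-null cells. Between the pools the domain differed by 0.221 points (-0.242 to 0.674), an interval on both sides of 0. With each pool's chrM level subtracted it was 0.592 points (0.102 to 1.07), and on sites listed in both tables -0.119 points (-0.639 to 0.394). The flanks were higher in the Tet1-null pool by 0.630 points (0.384 to 0.872), and all autosomes by 0.674 points (0.665 to 0.683). The contrast of the domain with the flanks, -0.409 points (-0.931 to 0.107), was not distinguishable from 0. It lay below 0 against the left flank alone, at -0.730 points (-1.32 to -0.138), and on sites listed in both tables, at -0.698 points (-1.28 to -0.117). Among 2597 autosomal blocks of 930 kb, 83.3% had a lower WT level than the domain, 77.4% a lower Tet1-null level and 14.1% a lower difference between the pools.

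**Figure D1:**
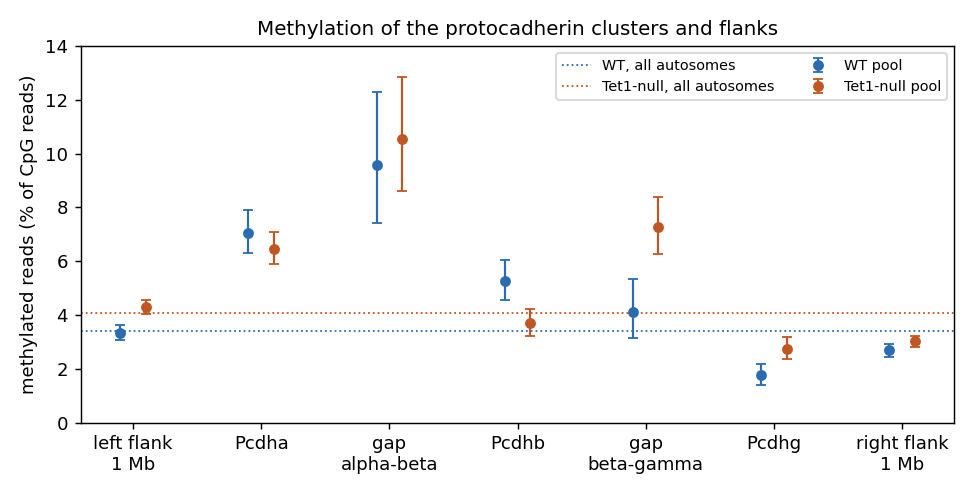
Methylation level (share of methylated reads, vertical axis) of each protocadherin cluster, the gaps between them and the 1 Mb flanks, for the WT and Tet1-null pools, with Wilson 95% counting intervals. Dotted lines give the autosomal level of each pool, and over all sites Pcdha is at 7.05% and 6.46% and Pcdhg at 1.76% and 2.75%, with Pcdhb between them at 5.25% and 3.70%, above Pcdha in WT where only windows with 1 to 19 positions are used.

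Pcdha stood above Pcdhg in both pools, and the place of Pcdhb between them depended on the sites used. Pcdha stood at 7.05% (279 of 3956 reads, 6.30 to 7.89%) in WT and 6.46% (437 of 6762, 5.90 to 7.07%) in Tet1-null cells. Pcdhb stood at 5.25% (180 of 3431, 4.55 to 6.04%) and 3.70% (200 of 5402, 3.23 to 4.24%). Pcdhg, the most CpG-rich cluster with 15.2 listed sites per kb against 10.1 in Pcdha and 9.08 in Pcdhb, had the lowest level, 1.76% (78 of 4433, 1.41 to 2.19%) and 2.75% (173 of 6300, 2.37 to 3.18%). Pcdha exceeded Pcdhg by 5.29 points (4.42 to 6.20) in WT and 3.72 points (3.01 to 4.43) in Tet1-null cells. That excess shrank to 1.81 points (0.752 to 2.89) and 1.32 points (0.353 to 2.28) in windows with 1 to 19 listed CpG positions, and to 3.71 and 1.98 points without the most methylated 10 kb of each cluster. At sites read 3 or more times per pool it was 3.03 and 2.39 points, and in these settings its intervals stayed above 0. Over all sites Pcdha exceeded Pcdhb by 1.81 points (0.707 to 2.90) and 2.76 points (1.98 to 3.53). Restricted to windows of 1 to 19 positions, the WT difference turned to -1.40 points (-2.71 to -0.108), with Pcdhb above Pcdha, and the Tet1-null difference was 0.607 points (-0.376 to 1.58). At sites read 3 or more times per pool they were -1.54 points (-3.84 to 0.608) and 1.57 points (-0.114 to 3.18). Pcdhb exceeded Pcdhg by 3.49 points (2.67 to 4.36) in the WT pool. In the Tet1-null pool the excess of Pcdhb over Pcdhg was 0.956 points (0.316 to 1.61), and on sites at least 100 bp apart it was 0.0550 points (-1.09 to 1.197). Here and below, the setting of sites at least 100 bp apart also kept only sites listed in both tables. Pcdhb exceeded the flanks by 2.25 points (1.52 to 3.06) in the WT pool. In the Tet1-null pool Pcdhb differed from the flanks by 0.0729 points (-0.426 to 0.633), within counting error. Pcdhg lay below the flanks in both pools, with differences of -1.24 points (-1.64 to -0.773) and -0.883 points (-1.29 to -0.423). In the WT pool, Pcdhg stood close to the chrM level of 1.66%.

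The pools differed in opposite directions in Pcdhb and Pcdhg. Pcdhb stood lower in Tet1-null cells (-1.54 points, -2.47 to -0.664), and Pcdhg was higher by 0.987 points (0.415 to 1.54). In Pcdha the difference of -0.590 points had an interval of -1.60 to 0.383 that included 0. The difference of Pcdhb minus that of Pcdhg was -2.53 points (-3.61 to -1.48), and it was -2.17 points (-3.92 to -0.466) on sites at least 100 bp apart. Against the flanks, Pcdhb differed by -2.17 points (-3.13 to -1.26), Pcdha by -1.22 points (-2.26 to -0.217) and Pcdhg by 0.356 points (-0.264 to 0.964). Of autosomal blocks as long as Pcdhb, 1.45% had a lower difference between the pools, and of those as long as Pcdhg 65.7%. On sites at least 100 bp apart, the intervals of each cluster alone included 0, at -1.12 points (-2.49 to 0.172) for Pcdhb and 1.05 points (-0.0617 to 2.14) for Pcdhg. At sites read 3 or more times per pool Pcdhg differed by 0.252 points (-0.907 to 1.39) and Pcdhb by -3.49 points (-5.69 to -1.46), and on sites listed in both tables Pcdha differed by -1.38 points (-2.53 to -0.250). The contrast of Pcdha with the flanks included 0 on sites at least 100 bp apart, at -0.633 points (-2.24 to 0.912). By bins of 10 kb, Pcdhb had 18 of 26 bins with the lower level in Tet1-null cells and 8 with the higher, and 15 of 19 bins of Pcdhg were higher and 4 lower. In Pcdha 13 of 28 bins were higher, 14 lower and 1 equal, and over all autosomal bins with 30 or more reads in each pool 58.2% were higher and 40.2% lower.

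The stretch between Pcdhb and Pcdhg, from 37680001 to 37820000, was higher in the Tet1-null pool than in the WT pool. It stood at 4.11% (53 of 1289 reads, 3.16 to 5.34%) and 7.27% (170 of 2339, 6.28 to 8.39%), a difference of 3.16 points (1.58 to 4.63). Of its 14 bins of 10 kb, 12 were higher in the Tet1-null pool and 2 lower. The bins ranged from 0.699% to 10.1% in the WT pool (median 3.30%) and from 0% to 15.8% in the Tet1-null pool (median 7.51%), so the ranges overlapped. On sites at least 100 bp apart the difference was 1.44 points (-0.807 to 3.52), an interval on both sides of 0. The stretch between Pcdha and Pcdhb stood at 9.57% (7.41 to 12.3%) and 10.6% (8.62 to 12.8%), a difference of 0.978 points (-2.35 to 4.13) that was within counting error.

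**Figure D2:**
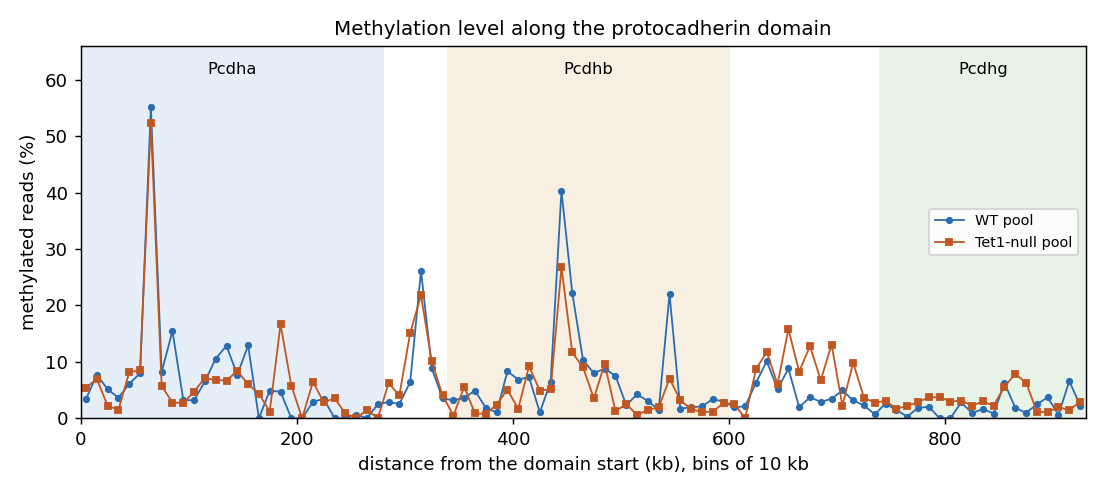
Methylation level in bins of 10 kb (vertical axis) along the domain, as distance from its start in kb, for the WT pool and the Tet1-null pool, with the clusters shaded. The highest bin of either pool lies in Pcdha at 55.2% and 52.4%, and the Pcdhg bins stay at or below 7.84%.

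The methylation level varied along the domain, and its highest bin of 10 kb stood above 50% in both pools. The bin from 37140001 to 37150000 in Pcdha stood at 55.2% (69 of 125 reads, 46.5 to 63.6%) in WT and 52.4% (131 of 250, 46.2 to 58.5%) in Tet1-null cells, a difference of -2.80 points (-13.3 to 7.87). Across all autosomes, 14 of 233983 bins with 30 or more reads in each pool reached 50% in both pools, and this bin is 1 of them. It carried 24.7% of the methylated reads of Pcdha in WT and 29.98% in Tet1-null cells, with 3.16% and 3.70% of its reads. Without it, Pcdha stood at 5.48% (4.804 to 6.25%) and 4.70% (4.21 to 5.24%). Pcdha then still exceeded the flanks, by 2.48 points (1.78 to 3.27) in WT and 1.07 points (0.555 to 1.63) in Tet1-null cells, where the values with it were 4.05 and 2.83 points. At sites read 3 or more times per pool, the excess in the Tet1-null pool was 0.642 points (-0.463 to 2.02).

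Within that bin the methylated windows lay on both sides of a stretch with hardly any listed CpG. The 1 kb windows from 37140001 and 37141001 held 11 methylated reads of 20 and 27 of 51 in the WT pool, and 36 of 75 and 23 of 52 in the Tet1-null pool. From 37142001 to 37147000 the tables listed 3 CpG positions, while the median distance between listed positions in Pcdha was 27 bp. Beyond it, the window from 37147001 held 6 of 10 and 4 of 8 methylated reads, that from 37148001 held 20 of 30 and 59 of 99, and that from 37149001 held 5 of 12 and 9 of 15. Methylation extended to the window before the bin, from 37139001, with 11 of 39 reads (28.2%) and 15 of 33 (45.5%). Just beyond the bin, the window from 37150001 held 0 of 4 and 4 of 8 methylated reads and that from 37151001 held 3 of 20 and 1 of 30. The level was low from 37152001, at 2 of 50 and 7 of 74 reads, and from 37136001, at 0 of 22 and 3 of 43. In the window from 37148001, 9 of 12 covered sites held a methylated read in WT and 24 of 35 in Tet1-null cells, with at most 5 reads at a site in either. The bin had 1.76 and 2.45 reads per listed site, against 2.12 and 2.75 in the rest of Pcdha. What sequence lies there was not analysed here.

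**Figure D3:**
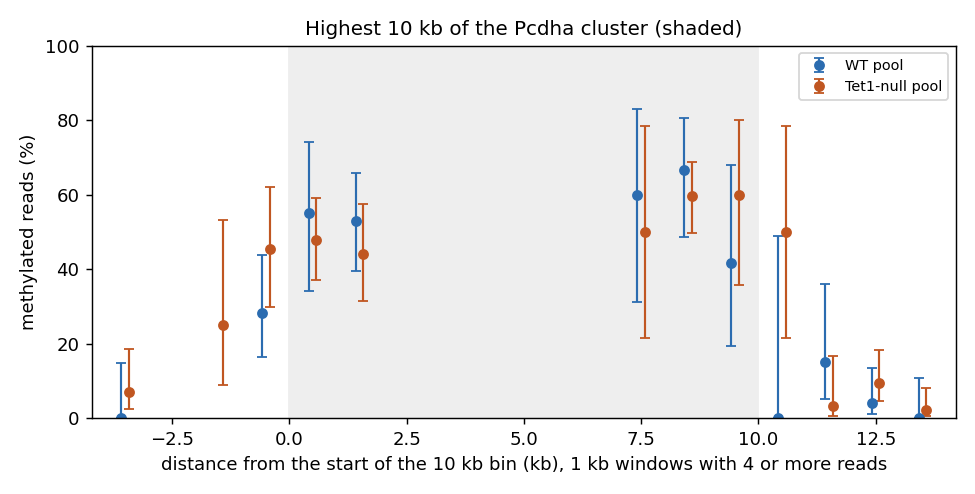
Methylation level (vertical axis) of 1 kb windows with 4 or more reads in a pool around the most methylated 10 kb of Pcdha (shaded), by distance from its start in kb, with Wilson 95% counting intervals. The 5 plotted windows inside the shaded bin, on both sides of an interval with almost no listed CpG, lie between 41.7% and 66.7%, windows next to the bin range from 0% to 50%, and the windows from 12 kb on lie at 9.46% or less.

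Other bins that stood high in both pools had lower levels than the Pcdha bin. The bin of Pcdhb from 37520001 to 37530000 stood at 40.3% (25 of 62 reads) in WT and 26.7% (31 of 116) in Tet1-null cells. Its window from 37524001 was at 64.3% (18 of 28, 45.8 to 79.3%) and 41.3% (19 of 46, 28.3 to 55.7%). Fisher's exact test did not separate these levels (unadjusted p = 0.0926). In the WT pool a single site, 37524521, held 8 of the 18 methylated reads. The bin between Pcdha and Pcdhb from 37390001 to 37400000 stood at 26.1% (35 of 134) and 21.8% (39 of 179). These and the Pcdha bin were the 3 of 93 bins of the domain at 20% or more in both pools, 3.23%, against 1.15% of autosomal bins. In contrast, the bin of Pcdhb from 37620001 to 37630000 stood at 22.0% (22 of 100) in WT and 7.02% (8 of 114) in Tet1-null cells. In Pcdha the bin from 37260001 to 37270000 stood at 4.69% (3 of 64) and 16.7% (15 of 90). The bins named here were picked after their values were seen and carry no test.

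A two-sided Fisher's exact test was run on every 1 kb window of the genome that had 20 reads per pool and 5 CpG positions read in both. The test treats the counts of a read that spans several CpGs as independent, so its p-values are too small. A window was called where the Benjamini-Hochberg adjusted p was under 0.05 and the levels were 20 points or more apart. In the domain 188 of 890 listed windows entered the test, with a median of 37 reads in WT and 52.5 in Tet1-null cells. None was called higher in the Tet1-null pool and 1 was called lower, against a background over 372074 windows of 0.097% called higher and 0.0637% called lower. At an unadjusted p under 0.05, 4 windows (2.13%) were higher and 6 (3.19%) lower, against 2.57% and 1.91% of all windows. A quasi-binomial F test over sites called 0 of the 188 windows in either direction, against 69 higher (0.0185%) and 44 lower (0.0118%) of all 372074. By direction alone, 82 windows (43.6%) were higher, 74 (39.4%) lower and 32 (17.0%) equal, against 40.8%, 31.0% and 28.2% of tested autosomal windows.

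The called window, from 37166001 to 37167000 in Pcdha, was lower in the Tet1-null pool than in the WT pool. In the WT pool 29 of its 68 reads were methylated, 42.6% (31.6 to 54.5%), against 3 of 61 in the Tet1-null pool, 4.92% (1.69 to 13.5%), a difference of -37.7 points (adjusted p = 0.00106, Fisher's exact test). It listed 45 CpG positions. Of 34 sites covered in the WT pool, 19 held a methylated read, spread over 820 bp. Any site had at most 5 reads, and at most 2 methylated ones. How many separate molecules these counts came from was not resolved. Of 38 sites covered in the Tet1-null pool, 2 held a methylated read. The difference was no longer called by the quasi-binomial F test over sites (adjusted p = 0.0819), and the window could not be tested on sites at least 100 bp apart. It remained called with a minimum of 30 reads in each pool (adjusted p = 4.61e-04, Fisher's exact test) and in a 2 kb window (-27.9 points, adjusted p = 1.19e-04, Fisher's exact test). Neither setting is a separate check. The first kept the same 68 and 61 reads and adjusted over fewer windows, 123382. The 2 kb window holds these reads among its 95 and 114.

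Single windows that differed most without being called are given as a description. After the called window, the windows with the lowest Tet1-null levels relative to WT were from 37233001 in Pcdha, with 13 of 32 reads (40.6%) and 5 of 40 (12.5%), from 37524001 in Pcdhb, from 37396001 in the stretch before Pcdhb, with 19 of 50 (38.0%) and 5 of 29 (17.2%), and from 37625001 in Pcdhb, with 13 of 39 (33.3%) and 5 of 36 (13.9%). The largest difference towards higher Tet1-null levels was from 37735001, between Pcdhb and Pcdhg, with 1 of 38 reads (2.63%) in WT and 19 of 88 (21.6%) in Tet1-null cells (Fisher's exact test, unadjusted p = 0.00686, adjusted p = 0.542). The next were from 37139001 in Pcdha, from 37956001 in Pcdhg (0 of 25 and 4 of 24), from 37495001 in Pcdhb (3 of 24 and 9 of 31) and from 37850001 in Pcdhg (1 of 37 and 6 of 33). These 5 windows rested on 4 to 19 methylated reads in the Tet1-null pool.

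Windows keeping methylation lay mostly in Pcdha and Pcdhb, and none was detected in Pcdhg. At 20% or more there were 10 of 188 tested windows in the WT pool, 5.32% (2.91 to 9.51%), and 8 for Tet1-null, 4.26% (2.17 to 8.17%), against 3.29% and 4.03% of tested autosomal windows. The intervals of the domain held both autosomal shares. Pcdha held 6 and 5 of these windows among 51 tested and Pcdhb 2 and 2 among 47, and the others lay between the clusters. In Pcdhg 0 of 71 windows reached 20% in either pool, for which the Wilson interval reaches 5.13%. The window of Pcdhg with the highest level over both pools, from 37868001, held 1 of 25 and 5 of 34 methylated reads. In the domain 5 windows were at 20% or more in both pools, 5 of the 10 in the WT list and 5 of the 8 in the Tet1-null list. These shares of 50% and 62.5% stood beside 61.5% and 50.2% over tested autosomal windows. At 50% or more there were 4 windows in WT, 2.13% (0.830 to 5.34%), against 0.571% of tested autosomal windows. In Tet1-null cells there was 1, 0.532% (0.0940 to 2.95%), against 0.551%. As a description across windows, which share libraries and depth, the pools' levels correlated at 0.747 (Pearson) and 0.219 (Spearman) over the 188 windows. The same values were 0.531 and 0.0311 in the flanks and 0.582 and 0.154 over tested autosomal windows. By cluster they were 0.818 and 0.474 over the 51 in Pcdha and 0.788 and 0.420 over the 47 in Pcdhb. Over the 71 in Pcdhg they were -0.155 and -0.294.

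CpG density set the clusters apart further. The density of a 1 kb window is the number of CpG positions listed in either table. Windows with 20 or more positions made up 15.4% of listed windows in Pcdha, 14.9% in Pcdhb and 28.5% in Pcdhg, against 7.07% in the flanks and 3.90% on autosomes. In Pcdha these dense windows stood at 10.6% (9.28 to 12.1%) in WT and 8.43% (7.55 to 9.41%) in Tet1-null cells, against 3.44% and 3.67% in dense windows of the flanks and 5.18% and 5.86% on autosomes. Without the highest 10 kb bin they stood at 7.81% (6.62 to 9.19%) and 5.35% (4.63 to 6.18%). In Pcdhg dense windows stood at 1.27% (0.891 to 1.81%) and 2.47% (2.01 to 3.03%), below those of the flanks and autosomes in both pools. In Pcdhb they stood at 4.81% (3.79 to 6.09%) and 3.55% (2.87 to 4.38%). If every window had the autosomal level of its density class, Pcdha would stand at 3.91% in WT and 4.47% in Tet1-null cells, against 7.05% and 6.46% measured. The same values for Pcdhg were 4.13% and 4.71%, against 1.76% and 2.75% measured. For Pcdhb they were 4.02% and 4.76%, with a measured level above in WT (5.25%) and below in Tet1-null cells (3.70%).

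Within Pcdha the difference between the pools had opposite signs in sparse and dense windows. Its windows with 1 to 9 positions were higher in the Tet1-null pool, 2.66% and 4.56%, by 1.90 points (0.596 to 3.14). Those with 10 to 19 positions were lower, 6.38% and 4.20%, by -2.18 points (-4.25 to -0.264), and those with 40 or more were lower, 9.52% and 5.75%, by -3.77 points (-6.43 to -1.39). The called window, with 45 positions, belongs to the densest class, and without it that class stood at 5.85% and 5.79%, a difference of -0.0668 points (-2.48 to 2.02). In those with 20 to 39 positions the difference of -0.876 points (-3.26 to 1.38) was within counting error. Over all dense windows of Pcdha the difference was -2.20 points (-3.96 to -0.535), and it was -0.863 points (-2.59 to 0.762) without the called window, so both differences rested on 1 window. In Pcdhg, windows with 1 to 9 positions were higher in the Tet1-null pool by 2.30 points (0.874 to 3.69) and those with 20 to 39 positions by 1.37 points (0.433 to 2.27). In the other density classes of Pcdhg the intervals included 0. In Pcdhb all 4 classes had a lower level in the Tet1-null pool, with an interval below 0 only for windows with 1 to 9 positions, -1.90 points (-3.58 to -0.331).

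**Figure D4:**
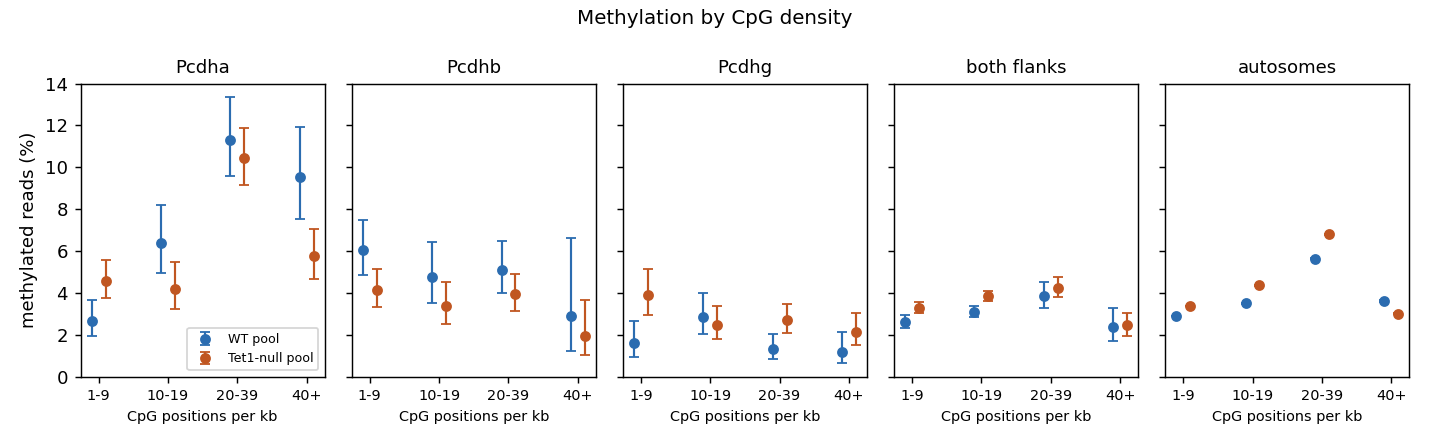
Methylation level (vertical axis) by listed CpG positions per 1 kb window in Pcdha, Pcdhb, Pcdhg, the flanks and all autosomes, for both pools, with Wilson 95% counting intervals. Windows of Pcdha with 20 to 39 positions stand at 11.3% and 10.4%, and those of Pcdhg at 1.33% and 2.69%.

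Adjacent dense windows formed 73 runs in the domain, 18 in Pcdha, 23 in Pcdhb and 23 in Pcdhg, with the others in the gaps. In Pcdha the first 13 runs started 4 to 9 kb apart. Of 68 runs with 20 or more reads in each pool, 36 were higher in the Tet1-null pool, 30 lower and 2 equal. In Pcdha the 17 runs with such depth ranged from 0% to 66.7% in the WT pool (median 5.13%) and from 0.962% to 59.6% in the Tet1-null pool (median 4.39%). In Pcdhb the 21 runs ranged from 0% to 64.3% (median 3.45%) and from 0% to 41.3% (median 1.45%). In Pcdhg the 22 runs ranged from 0% to 4.17% (median 0.677%) and from 0% to 11.4% (median 2.45%). Of the Pcdhg runs, 10 held no methylated read in WT and 1 in Tet1-null cells, 16 were higher in the Tet1-null pool and 6 lower. Runs were formed in the domain only, so these counts have no share over other regions beside them. Dense windows of all autosomes were also higher in the Tet1-null pool, by 0.679 points (0.649 to 0.709). Those of the flanks differed by 0.235 points (-0.398 to 0.836). The Tet1-null pool was the deeper one, and the part of depth in the count of runs at 0 was not tested.

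Neighbouring runs of Pcdha could stand far apart. Run 7 of Pcdha, from 37133001, stood at 2.59% (3 of 116 reads) and 4.58% (12 of 262). Run 8, from 37139001, stood at 44.5% (49 of 110) and 46.2% (74 of 160), and run 9, from 37148001, at 66.7% and 59.6%. Run 10, from 37152001, stood at 2.44% (2 of 82) and 5.59% (9 of 161). Run 12, from 37165001, which holds the called window, stood at 34.5% (30 of 87) and 4.17% (5 of 120). The first run, from 37090001, stood at 12.7% (15 of 118) and 9.12% (27 of 296), and the last, from 37303001, at 1.61% (1 of 62) and 1.46% (2 of 137). Run 6, from 37127001, stood at 11.7% (14 of 120) and 12.7% (34 of 267). Runs 6, 8 and 9 were the 3 Pcdha runs with such depth at 10% or more in both pools, and runs 1 and 12 reached 10% in WT and not in Tet1-null cells.

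**Figure D5:**
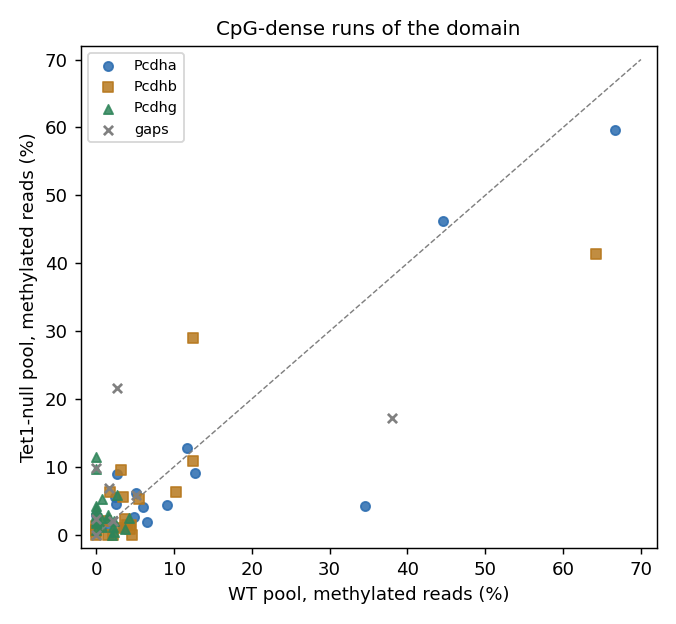
Methylation level of each run of CpG-dense windows with 20 or more reads in each pool, in the WT pool (horizontal axis) against the Tet1-null pool (vertical axis), marked by cluster, with a dashed line of equality. Runs of Pcdhg lie at or below 4.17% and 11.4%, and 3 runs of Pcdha and Pcdhb stand at 41.3% or more in both pools.

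Most single sites were unmethylated in the reads seen. Among 841 sites read 3 or more times per pool, 90.0% (87.8 to 91.9%) were at 0 in WT and 89.1% (86.8 to 91.0%) in Tet1-null cells, against 91.4% and 88.6% of such sites on autosomes. In Pcdhg the shares were 94.4% (91.0 to 96.5%) and 93.0% (89.4 to 95.4%) of 284 sites. In Pcdha they were 87.9% (83.4 to 91.3%) and 86.4% (81.7 to 90.0%) of 264 sites, and in Pcdhb 86.2% (80.7 to 90.4%) and 90.8% (86.0 to 94.1%) of 196. Sites at 50% or more numbered 28 (3.33%) and 23 (2.73%) in the domain. Such sites made up 2.39% and 2.70% in the flanks and 2.05% and 2.23% on autosomes. Of the 28 and 23 in the domain, 13 and 14 lay in Pcdha and 11 and 2 in Pcdhb. Among the 89 domain sites read 5 or more times per pool, 0 reached 50% in either pool, against 0.979% and 1.05% on autosomes. At that level in both pools were 4 of the 841 sites, against 7367 of 1953746 on autosomes. The stretch between Pcdhb and Pcdhg had 62 of 66 sites at 0 in WT and 52 in Tet1-null cells.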

How the data were processed

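Per the labels' protocols, DNA was fragmented and tagged by Tn5 transposase, converted with bisulfite, amplified and sequenced. Conversion used the Sigma kit (2 WT, 2 Tet1-null libraries) or the Zymo kit (2 WT, 3 Tet1-null). Sequencing runs 1, 2 and 3 held 1, 1 and 2 WT and 0, 2 and 3 Tet1-null libraries, so kit, run and genotype cannot be told apart once merged. The authors deposited 1 table per genotype with libraries pooled, holding for each CpG a fraction (methylated share) and a read count. The submitters' processing notes name mm9 and bedtools. Not given in the sources used here are the aligner, duplicate handling and the treatment of reads matching several protocadherin paralogs. The authors' deposited script removes reads with much unconverted non-CpG cytosine, which can lower levels.

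The product of level and count was a whole number at 100% of sites (tolerance 0.0005 per read). Sums of methylated and of all reads used Python 3.11.15 with pandas 2.3.3, numpy 2.4.6, scipy 1.17.1 and, for plots, matplotlib 3.10.9. Coordinates count from 1, taking the tables' starts to count from 0. Levels carry Wilson, differences Newcombe 95% intervals, and contrasts of differences combine those intervals. The window test was checked on simulated data with independent counts, which cannot show how it behaves where 1 read counts at several CpGs. Named windows were those called, the 3 most methylated per cluster, and the 5 largest rises and falls. The cluster bounds, members and lists were chosen with earlier results of these data known, and dense runs, 10 kb bins and contrasts between clusters were chosen after seeing the data, as was leaving out the called window. Gene starts were planned but not analysed here, since no annotation or promoter sequence of these genes in the build was used. No sequence is printed.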

Additional observations from a re-analysis of the deposited data

How the results depend on the processing

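No paired analysis was possible because each table pools the libraries of a genotype, and leaving out libraries could not be run for the same reason. Of 51 alternatives to the differences of the domain, the clusters, the contrast with the flanks and the density classes, 35 kept the sign and the side of the interval. Means of site levels have no interval and counted by sign alone. Subtracting chrM cannot change the contrast with the flanks, so that alternative tested nothing. The sign changed in 6, none of them a difference whose interval had excluded 0, 5 intervals came to include 0 and 6 to exclude it. The level of Pcdha minus that of Pcdhb in WT turned to -1.54 points at sites read 3 or more times per pool and to -1.40 in windows with 1 to 19 positions, settings added after seeing the data. At sites read 3 or more times per pool the difference of the domain was -0.406 points, that of Pcdhb -3.49, that of Pcdhg 0.252 and the contrast of the domain with the flanks -0.946. As a mean of site levels the difference of Pcdha was -1.90 points. With 500 bp windows the class of 10 to 19 positions per kb differed by 1.08 points, and that of 1 to 9 positions by 0.485 points (-0.360 to 1.30). The share of sites without a methylated read in the WT pool was 92.1% over the 89 sites read 5 or more times per pool. The count of windows called lower was 0 by the quasi-binomial F test and 0 on sites at least 100 bp apart and listed in both tables. The latter called 0 of 311032 windows genome-wide and could not test the called window, so its 0 says nothing about that window. With the chrM level subtracted, the difference of the domain became 0.592 points (0.102 to 1.07). Leaving out the 10 kb bin with the most methylated reads of each cluster, added after seeing the data, kept the differences at -0.783, -1.40 and 0.950 points in Pcdha, Pcdhb and Pcdhg. The difference of Pcdha had no settled sign, since it was 0.293 points in windows with 1 to 19 positions. The causes were not tested. At about 2 reads per site, single windows and sites show only large differences.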
